A study of Mus musculus with 6 samples.

Results

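The genes described are 52 nuclear genes for structural subunits of the mitochondrial respiratory chain, chosen by symbol: 29 of complex I, 4 of complex II, 8 of complex III and 11 of complex IV. All 52 were found among the 45471 named genes of the count table, and all 52 passed the filter on low counts that left 15399 genes to test. The libraries were RNA sequencing libraries of mouse prefrontal cortex homogenate at postnatal week 8. The groups were 3 wild type libraries and 3 libraries from mice heterozygous for the 16p11.2 duplication. Both groups share a background made on hybrid C57BL/6N:129Sv and then backcrossed for 10 generations to C57BL/6. The labels do not say that each library is a separate animal or litter, so the p-values reflect only how far these samples spread. Part of that spread may be technical. It is not technical alone, as Xist and Y-linked counts (given below) were male-like in replicate 1 and female-like in replicate 3 of each group. The labels do not give sex. The comparison asks how the duplication, modelled in mice after a human copy number variant, goes with the cortical level of these transcripts.

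The respiratory chain sits in the inner mitochondrial membrane and passes electrons from NADH and succinate to oxygen. Complex I oxidises NADH, complex II oxidises succinate, complex III passes electrons from ubiquinol to cytochrome c, and complex IV reduces oxygen to water. Complexes I, III and IV pump protons, and each combines subunits from the nuclear genome with subunits from mitochondrial DNA, while complex II is encoded in the nucleus alone. Cortical neurons draw on this chain for most of the ATP that restores ion gradients after synaptic and action potential firing.

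Before the results, several facts on the libraries are given. Library totals ran from 12988457 to 21872271 counts. Replicate 1 of each group had no Xist count and 982 (wild type) and 2147 (duplication) counts of the Y-linked Ddx3y, while replicate 3 of each group had 3531 and 2567 Xist counts and 0 and 5 of Ddx3y. Replicate 2 of each group had both, with 2130 and 2090 Xist counts and 71 and 77 of Ddx3y, and results are given below also without both of them. The genes Mapk3, Ypel3, Ppp4c, Taok2 and Maz, which lie in the duplicated segment, were higher in every duplication library than in any wild type library. Their median log2 fold change was 0.71, and none of the 5 passed the edgeR quasi-likelihood test after Benjamini-Hochberg adjustment over all genes (smallest adjusted p = 0.129). All 9 neuron markers were detected, with a summed level of 7244 to 7728 CPM (counts scaled to a common library size) in wild type and 7361 to 7715 in duplication libraries.

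The respiratory chain genes lay higher in the duplication group by small amounts that did not pass the test. The log2 fold change was above 0 for 52 of 52 members, against 51% of all tested genes, with a median of 0.15 against 0.01 over all tested genes (whose mean was -0.05) and a range from 0.03 to 0.31. In the edgeR quasi-likelihood test with Benjamini-Hochberg adjustment over all 15399 genes, 0 members passed, where 0% of all genes passed in either direction, and the smallest adjusted p of a member was 0.174. DESeq2 also called 0 members, where 0.292% of all genes were called higher and 1.43% lower, and its smallest adjusted p of a member was 0.0616. In limma-voom, too, 0 members passed. At an unadjusted p under 0.05, 17 members lay higher and 0 lower, where 7.05% of all genes lay higher and 12.2% lower. For 14 members every duplication library was above every wild type library, where 11.7% of all genes had this order. In bulk tissue, more cells of a type and more RNA per cell cannot be told apart.

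**Figure D1:**
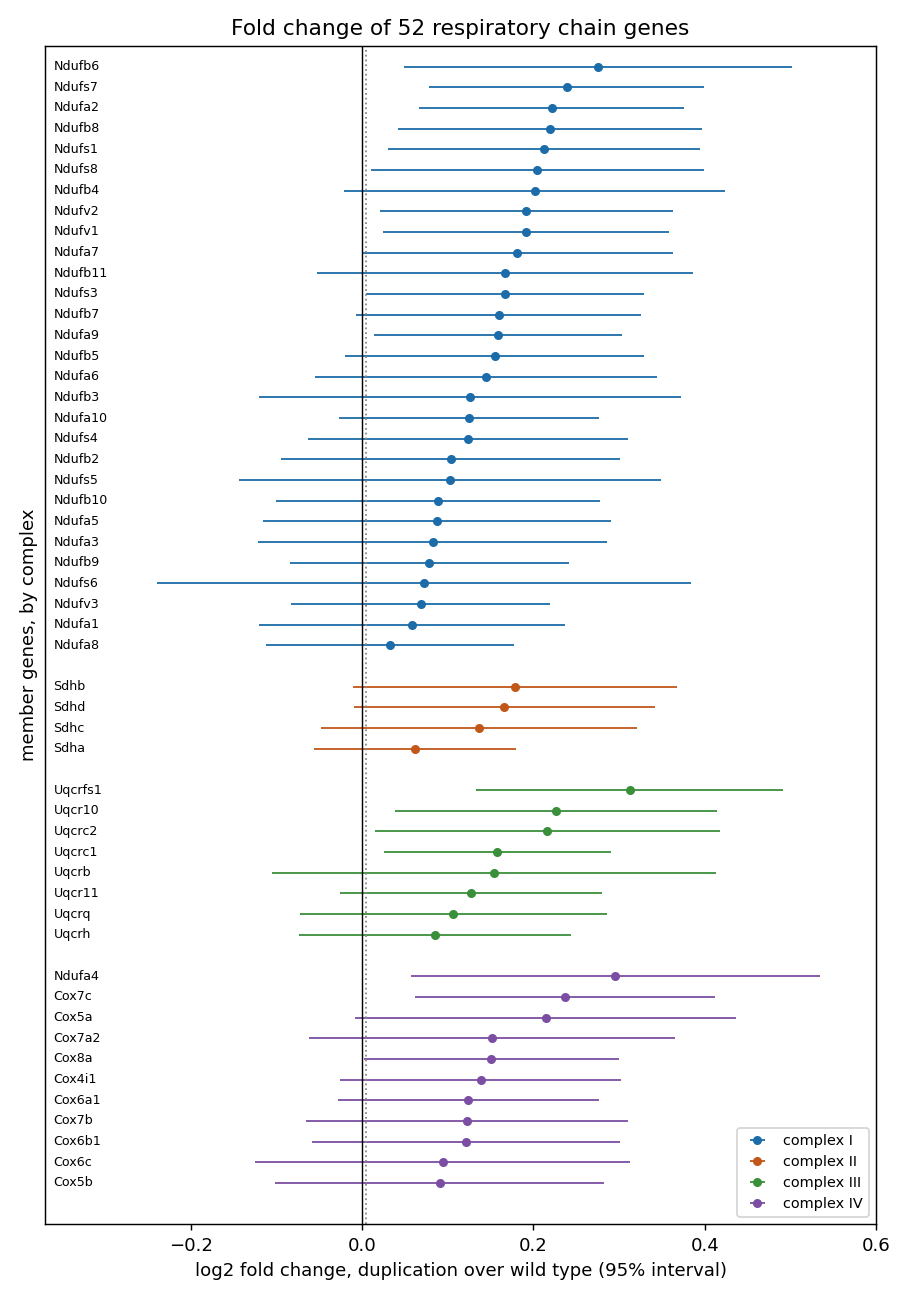
Log2 fold change (duplication over wild type, x axis) of the 52 members, 1 line per gene, grouped by complex; points are fitted values, bars their 95% intervals, and the dotted line is the median of all tested genes. All 52 points lie to the right of 0, between 0.03 and 0.31, and most bars cross 0.

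Wild type replicate 2 stood apart from the other wild type libraries across the members. Over the 52 genes, log2 CPM centred on the mean of the 6 libraries averaged -0.19 in wild type replicate 1, 0.08 in replicate 2 and -0.12 in replicate 3. The duplication libraries averaged 0.11, 0.06 and 0.07 in the same order. Wild type replicate 2 thus lay among the duplication libraries, and the groups overlapped. It was the highest wild type library for 51 of 52 members, at or above the lowest duplication library for 38, and above all duplication libraries for 15. Wild type replicates 1 and 3 were both below all duplication libraries for 50 of 52 members. The median member was 0.22 higher on the log2 scale in wild type replicate 2 than in the mean of the other wild type libraries, and differed from the duplication mean by -0.00299.

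The count of calls turned on that library. Without wild type replicate 2, edgeR called 30 of the 52 members higher and 0 lower, where 4.65% of 15713 tested genes were called higher and 10.7% lower, and the members' median log2 fold change was 0.22. Without both libraries numbered 2, it called 11 members, where 1.48% of genes were called higher and 7.01% lower, and the median was 0.24 (0.245). Leaving out wild type replicate 1 gave 0 calls, a median of 0.10, and log2 fold changes below 0 for 3 members. Wild type replicate 2 was left out with its place known, so these counts describe the other 5 libraries.

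**Figure D2:**
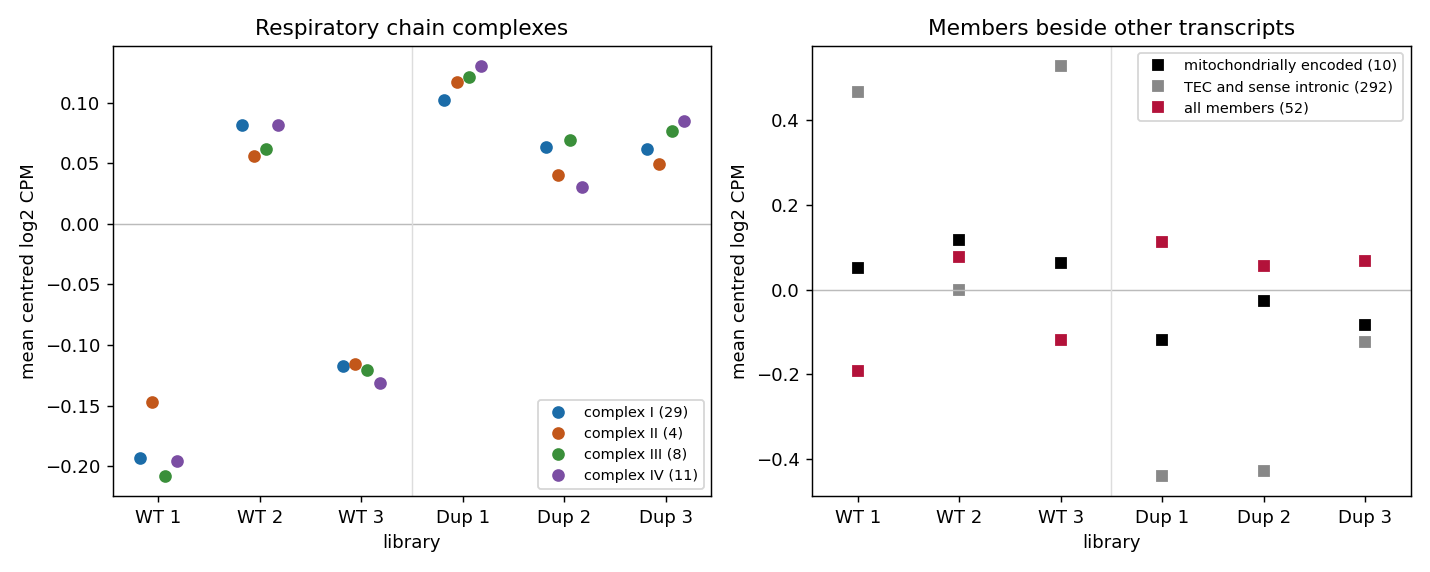
Mean centred log2 CPM (y axis) of sets of genes in each of the 6 libraries (x axis; WT, wild type; Dup, duplication), with the number of genes in brackets. Left, the complexes I to IV, in each of which wild type replicates 1 and 3 are lowest and duplication replicate 1 is highest. Wild type replicate 2 lies near the other duplication libraries. Right, all 52 members beside mitochondrially encoded genes and transcripts annotated as TEC or sense intronic.

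Complex I, the entry point for electrons from NADH, had 29 members with a median log2 fold change of 0.15 (1.11-fold) and a range from 0.03 to 0.28. At an unadjusted p under 0.05, 10 of the 29 (34.5%) lay higher, where 7.05% of all genes did, and for 9 the groups did not overlap with duplication higher, where this held for 11.7% of all genes. Mean wild type levels ran from 29.7 to 169 CPM. The 6 members of the catalytic core, which carry the flavin and the iron-sulfur clusters or hold the ubiquinone site, were Ndufv1, Ndufv2, Ndufs1, Ndufs3, Ndufs7 and Ndufs8. Their median log2 fold change was 0.20, with a range from 0.17 to 0.24, and all 6 had an unadjusted p under 0.05 in the edgeR quasi-likelihood test. The 23 accessory members had a median of 0.13 (0.125) and a range from 0.03 to 0.28, and 4 of them had such a p. This division was made after the values were seen and was not tested.

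Ndufs7, the subunit that carries the last iron-sulfur cluster before ubiquinone, had the smallest p of complex I (ENSMUSG00000020153.14, mm10 chromosome 10, 80249121 to 80256794, plus strand). Its level was 40.5, 44.1 and 39.9 CPM in wild type replicates 1 to 3 and 51.5, 48.5 and 47.0 CPM in duplication replicates 1 to 3. Every duplication library was above every wild type library. Ndufs7 was at a log2 fold change of 0.24 ± 0.07 (SE; 95% interval 0.08 to 0.40), and it did not pass the edgeR quasi-likelihood test (adjusted p = 0.174).

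Ndufb6, an accessory subunit of the membrane arm, had the largest fold change of complex I (ENSMUSG00000071014.10, chromosome 4, 40270591 to 40279421, minus strand). It was at 43.7, 57.0 and 45.4 CPM in wild type and 61.3, 58.5 and 57.1 CPM in duplication libraries. Wild type replicate 2 lay just under the lowest duplication library, 57.0 against 57.1 CPM, and the groups did not overlap. Its log2 fold change was 0.28 ± 0.10 (SE; edgeR quasi-likelihood adjusted p = 0.201).

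Ndufa8, an accessory subunit on the side of the intermembrane space, had the lowest fold change of all members (ENSMUSG00000026895.7, chromosome 2, 36036326 to 36049406, minus strand). Its level was 56.4, 61.3 and 61.6 CPM in wild type and 59.1, 61.4 and 63.0 CPM in duplication libraries. The groups overlapped widely, and the log2 fold change was 0.03 ± 0.06 (SE; 95% interval -0.11 to 0.18; edgeR quasi-likelihood adjusted p = 0.807). Without wild type replicate 1 it was -0.01 (-0.00629). Ndufa8 also followed the other members least: over the 6 libraries its centred log2 CPM had a Pearson correlation of 0.528 with the mean of the other 51, where the median member had 0.928 and 50 of 52 were above 0.8. These are descriptions over 6 points that share library and depth.

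Ndufb9, an accessory subunit that binds the mitochondrial acyl carrier protein, was the most abundant complex I member per kilobase of merged exons (ENSMUSG00000022354.4, chromosome 15, 58933756 to 58939488, plus strand). It was at 123.3, 141 and 122.6 CPM in wild type and 141, 135 and 132 CPM in duplication libraries, and the groups overlapped. Per kilobase this was 125 ± 10.3 CPM in wild type and 132 ± 4.54 in duplication (SD, n = 3 per group). Its log2 fold change was 0.08 ± 0.07 (SE; edgeR quasi-likelihood adjusted p = 0.566).

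The other core members of complex I had values of the same size. Ndufs1, the largest iron-sulfur subunit, was at 153, 189 and 163 CPM in wild type and 200.1, 193 and 193 CPM in duplication libraries, a log2 fold change of 0.21. Ndufv1, which binds NADH and flavin mononucleotide, was at 142.7, 161.5 and 137.5 CPM in wild type and 175.4, 167.2 and 161.7 CPM in duplication libraries, a log2 fold change of 0.19. In neither did the groups overlap, but the gap between wild type replicate 2 and the lowest duplication library was small beside the gaps within the wild type group. Ndufs8, Ndufv2 and Ndufs3 were at log2 fold changes of 0.20, 0.19 and 0.17.

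Among the other accessory members of complex I, log2 fold changes ran from 0.06 to 0.22. Ndufa2 and Ndufb8 were both at 0.22 and Ndufb4 at 0.20. Ndufa7 was at 0.18, Ndufb11 at 0.17, Ndufa9 and Ndufb7 at 0.16, Ndufb5 at 0.15 and Ndufa6 at 0.14. Ndufb3 was at 0.13, Ndufa10 and Ndufs4 at 0.12, and Ndufb2 and Ndufs5 at 0.10. Ndufb10 and Ndufa5 were at 0.09, Ndufa3 at 0.08, Ndufs6 and Ndufv3 at 0.07 and Ndufa1 at 0.06. Ndufs6, whose 95% interval was the widest of complex I, had a correlation of 0.725 with the other members over the 6 libraries, the second lowest.

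Complex II, succinate dehydrogenase, which also serves the citric acid cycle, had 4 members with a median log2 fold change of 0.15 (1.11-fold) and a range from 0.06 to 0.18. None of the 4 had an unadjusted p under 0.05 in the edgeR quasi-likelihood test, where 7.05% of all genes lay higher and 12.2% lower. DESeq2 called 0, where it called 0.292% of all genes higher and 1.43% lower. With 4 genes, a count of 0 does not set complex II apart from these shares. Sdhb, the iron-sulfur subunit, had the smallest p and the largest fold change (ENSMUSG00000009863.14, chromosome 4, 140961203 to 140979193, plus strand). It was at 103, 127 and 109 CPM in wild type and 133, 126 and 124 CPM in duplication libraries, where wild type replicate 2 lay inside the duplication group. Sdhb was at a log2 fold change of 0.18 ± 0.08 (SE; edgeR quasi-likelihood adjusted p = 0.280).

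Sdha, the flavoprotein that holds the succinate site, was the most abundant complex II member per kilobase, at 94.3 ± 1.90 CPM per kilobase in wild type and 98.5 ± 1.44 in duplication (SD, n = 3 per group; ENSMUSG00000021577.14, chromosome 13, 74322254 to 74350280, minus strand). It was at 382, 398 and 388 CPM in wild type and 403, 403 and 413 CPM in duplication libraries. It was the 1 complex II member of 4 whose groups did not overlap, where 11.7% of all genes had duplication higher without overlap. Yet its log2 fold change of 0.06 ± 0.05 (SE, edgeR quasi-likelihood adjusted p = 0.533) was the lowest of the complex. The membrane anchors Sdhd and Sdhc were at log2 fold changes of 0.17 and 0.14.

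Complex III, the cytochrome bc1 complex, had 8 members with a median log2 fold change of 0.16 (0.156; 1.11-fold) and a range from 0.09 to 0.31. At an unadjusted p under 0.05, 4 of the 8 (50%) lay higher, beside 7.05% of all genes, and for 3 the groups did not overlap, beside 11.7% of all genes. Uqcrfs1, the Rieske iron-sulfur protein that takes the first electron from ubiquinol, had the largest fold change and the smallest p of all 52 members (ENSMUSG00000038462.3, chromosome 13, 30540308 to 30545362, minus strand). Its level was 86.2, 100.45 and 85.8 CPM in wild type and 119, 107 and 113 CPM in duplication libraries. The groups did not overlap, and wild type replicate 2 was the wild type library nearest to the duplication group. The log2 fold change of Uqcrfs1 was 0.31 ± 0.08 (SE; 95% interval 0.13 to 0.49; 1.24-fold), and it did not pass in edgeR's quasi-likelihood test (adjusted p = 0.174) or in DESeq2 (adjusted p = 0.0616). With no filter on low counts, edgeR called 2 of the 52 members, where 0.655% of 26419 genes were called higher and 3.19% lower, and Uqcrfs1 was one of them (edgeR adjusted p = 0.0179).

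Uqcr10, a small accessory membrane subunit, had the highest level of complex III per kilobase of merged exons (ENSMUSG00000059534.8, chromosome 11, 4701973 to 4704342, minus strand). It was at 62.9, 78.5 and 69.9 CPM in wild type and 83.5, 80.1 and 83.7 CPM in duplication libraries, with no overlap. Its log2 fold change was 0.23 ± 0.08 (SE; edgeR quasi-likelihood adjusted p = 0.204). Per kilobase of merged exons, Uqcr10 was at 121 ± 13.4 CPM in wild type, within the spread of Uqcr11 at 119 ± 8.42 (SD, n = 3), and with the longest single transcript Uqcrh was higher, at 155 CPM per kilobase against 138. Uqcrh, the hinge protein that helps cytochrome c dock, had the lowest fold change of complex III (ENSMUSG00000063882.12, chromosome 4, 116066965 to 116075071, minus strand). It was at 117, 135 and 122 CPM in wild type and 135, 134 and 126 CPM in duplication libraries, and the groups overlapped. Uqcrh was at a log2 fold change of 0.09 ± 0.07 (SE; edgeR quasi-likelihood adjusted p = 0.523).

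Uqcrc2, a core subunit of the matrix arm, had the pattern closest to the other members, with a correlation of 0.998 over the 6 libraries. It was at 187, 239.6 and 200.2 CPM in wild type and 251, 239.5 and 238 CPM in duplication libraries, so wild type replicate 2 lay within the duplication group. Uqcrc2 was at a log2 fold change of 0.22. Its partner Uqcrc1 was at 0.16, and the small subunits Uqcrb, Uqcr11 and Uqcrq were at 0.15, 0.13 and 0.11.

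Complex IV, cytochrome c oxidase, had 11 members with a median log2 fold change of 0.14 (1.10-fold) and a range from 0.09 to 0.30. At an unadjusted p under 0.05, 3 of the 11 (27.3%) lay higher, beside 7.05% of all genes. For 1 of the 11, Cox7c, the groups did not overlap, a share under the 11.7% of all genes. Wild type replicate 2 was at or above the lowest duplication library for 10 of the 11. Cox7c, a small membrane subunit, had the smallest p of the complex (ENSMUSG00000017778.14, chromosome 13, 86044816 to 86046904, minus strand). It was at 60.5, 65.4 and 57.6 CPM in wild type and 77.3, 66.6 and 72.3 CPM in duplication libraries. The lowest duplication library lay close above the highest wild type library, and the log2 fold change was 0.24 ± 0.08 (SE; edgeR quasi-likelihood adjusted p = 0.179).

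Ndufa4, which was first assigned to complex I and is now counted as a complex IV subunit, had the largest fold change of the complex (ENSMUSG00000029632.7, chromosome 6, 11900292 to 11907497, minus strand). Its level was 127, 168 and 131 CPM in wild type and 185, 165 and 172 CPM in duplication libraries. Wild type replicate 2 lay within the duplication group while the other wild type libraries lay well under it. The log2 fold change was 0.30 ± 0.11 (SE; edgeR quasi-likelihood adjusted p = 0.196). Ndufa4 was the other member that passed with no filter on low counts (edgeR adjusted p = 0.0426), and without wild type replicate 2 its log2 fold change was 0.43 (edgeR adjusted p = 0.00356).

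Cox5b, a zinc-binding subunit on the matrix side, had the lowest fold change of complex IV (ENSMUSG00000061518.11, chromosome 1, 36691449 to 36693681, plus strand). It was at 109, 138 and 121 CPM in wild type and 131, 127 and 134 CPM in duplication libraries, and wild type replicate 2 was the highest of the 6. Cox5b was at a log2 fold change of 0.09 ± 0.09 (SE; edgeR quasi-likelihood adjusted p = 0.578). Cox5a was at a log2 fold change of 0.21, Cox7a2 at 0.15, Cox4i1 at 0.14, and Cox6a1, Cox6b1 and Cox7b at 0.12, with Cox6c at 0.09.

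Cox8a, a small membrane subunit, had the highest level of all members per kilobase of merged exons, at 516 ± 30.6 CPM per kilobase in wild type and 573 ± 27.4 in duplication (SD, n = 3 per group; ENSMUSG00000035885.5, chromosome 19, 7215153 to 7217616, minus strand). It was at 320.3, 338 and 300.05 CPM in wild type and 371, 337 and 355 CPM in duplication libraries, so the groups just overlapped. Its log2 fold change was 0.15 ± 0.07 (SE; edgeR quasi-likelihood adjusted p = 0.255). The next levels per kilobase in wild type were Cox6a1 at 239 ± 13.3, Cox4i1 at 216 ± 19.4 and Cox6b1 at 195 ± 21.2, and Cox8a lay many SDs above the next while the other neighbours were about 1 SD apart. Ndufb2 was lowest at 7.58 CPM per kilobase. Merged exons include retained introns, which lowers such values for some genes, and with the longest single transcript Cox4i1 came to 438 CPM per kilobase.

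**Figure D3:**
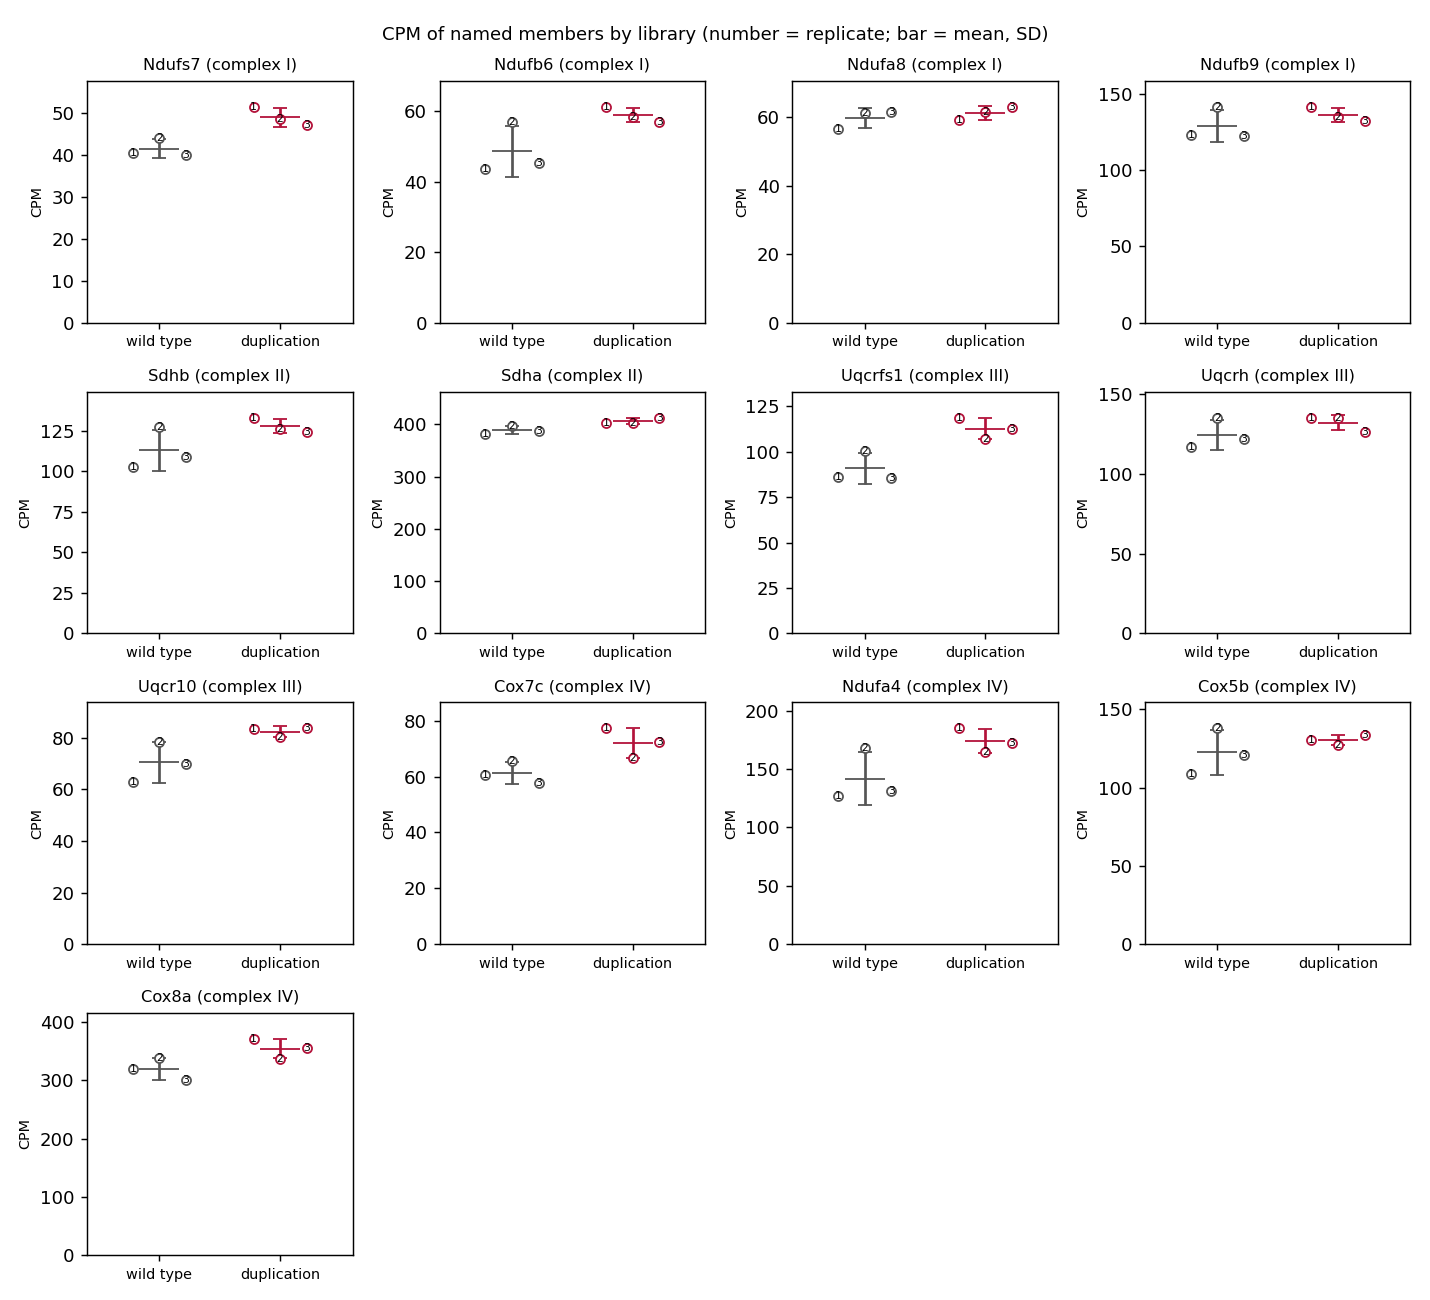
Level in CPM (y axis, from 0) of 13 members, those named by smallest p, highest or lowest fold change or highest level per kilobase in each complex, by group (x axis); each circle is a library with its replicate number, the bar is the group mean and the whiskers are 1 SD (n = 3). In most panels wild type circle 2 lies above wild type circles 1 and 3 and near the duplication circles, as for Ndufa4 at 168 CPM.

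Promoter sequence was compared because nuclear respiratory factor 1 (NRF1), YY1 and the ETS factor GABP are known regulators of respiratory chain genes. Promoters from RefSeq (GRCm38.p6; 250 bases before to 50 after each start) were found for 43 of the 52 members, 45 promoters in all. On both strands, the letters AAGATGGC (YY1) were in 6 of the 45 (13.3%), against 2.75% of all 32851 promoters and 3.09% of those of protein-coding names. All 6 lay on the strand of the gene, 23 to 39 bases after the start. All were in complex I genes, which are 29 of the 52 members. Each match contained the annotated start codon, which the letters ATG in the motif spell. They are shown because they share this place, with the motif in capitals in windows of 30 bases.
Ndufa3, chr7:3617384-3617413, plus strand: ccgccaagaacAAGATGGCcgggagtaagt
Ndufa9, chr6:126849097-126849126, minus strand: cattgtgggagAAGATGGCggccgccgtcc
Ndufb8, chr19:44555393-44555422, minus strand: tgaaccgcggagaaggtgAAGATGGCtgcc
Ndufs4, chr13:114388045-114388074, minus strand: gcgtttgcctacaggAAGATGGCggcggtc
Ndufs6, chr13:73328433-73328462, minus strand: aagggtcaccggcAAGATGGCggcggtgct
Ndufs7, chr10:80249462-80249491, plus strand: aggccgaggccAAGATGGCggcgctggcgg

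Log2 fold changes of the genes with these letters were 0.24 ± 0.07 (SE) for Ndufs7, 0.22 ± 0.08 for Ndufb8 and 0.16 ± 0.06 for Ndufa9. Ndufs4 was at 0.12 ± 0.08, Ndufa3 at 0.08 ± 0.09 and Ndufs6 at 0.07 ± 0.14. Their 95% intervals overlapped, and whether the values differ was not tested. The palindromic NRF1 motif, in capitals in its windows below, was in 2 of the 45 promoters (4.44%), against 0.971% of all promoters and 1.4% of those of protein-coding names. The ETS letters CCGGAAGT were in 4 (8.89%), against 3.89% and 5.24%. The NRF1 matches lay 162 bases before the start of Cox6a1 and 31 bases after that of Uqcrc1, and the ETS matches shown, of Ndufs3, Cox8a and Uqcrh, are the 3 nearest to a start and have their letters on the other strand. Cox8a held another ETS match 32 bases after its start, and Uqcr11 held one 66 bases before its start. In the windows, the capitals mark the motif or its reverse complement.
Cox6a1, NRF1, chr5:115349101-115349130, minus strand: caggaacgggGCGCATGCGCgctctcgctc
Uqcrc1, NRF1, chr9:108936668-108936697, plus strand: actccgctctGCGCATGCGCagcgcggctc
Ndufs3, ETS, chr2:90904703-90904732, minus strand: tgcacatttccACTTCCGGtccgtgccctt
Cox8a, ETS, chr19:7217604-7217633, minus strand: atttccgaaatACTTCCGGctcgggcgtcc
Uqcrh, ETS, chr4:116075063-116075092, minus strand: gagtatgccgcACTTCCGGccaggtcgccg
These genes were at log2 fold changes of 0.12 (Cox6a1), 0.16 (Uqcrc1), 0.17 (Ndufs3), 0.15 (Cox8a) and 0.09 (Uqcrh). The median GC content was 58.3% for member promoters, 57% for promoters of protein-coding names and 52.7% for all promoters. A match describes letters and is no bound site.

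Of the factors themselves, Nrf1 was at a log2 fold change of -0.02 ± 0.09 (SE), Gabpa, the DNA-binding subunit of GABP, at 0.01 ± 0.09 and Yy1 at -0.16 ± 0.08. Ppargc1a, the coactivator PGC-1alpha that drives mitochondrial biogenesis, was at 63.9, 39.5 and 50.7 CPM in wild type and 34.8, 35.9 and 38.3 CPM in duplication libraries. Every duplication library was below every wild type library, opposite to the members, and wild type replicate 2 was again the wild type library nearest to the duplication group. The log2 fold change of Ppargc1a was -0.50 ± 0.15 (SE; edgeR quasi-likelihood adjusted p = 0.174). Over the 21 regulators of mitochondrial biogenesis the median was -0.08, and 3 lay higher and 3 lower at an unadjusted p under 0.05, beside 7.05% and 12.2% of all genes, with the kinase subunit Prkaa1 at 0.19 ± 0.07 and Tfam, which packages mitochondrial DNA, at 0.11 ± 0.09.

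Other nuclear genes of the same pathway lay near the members. Over 18 genes of the ATP synthase, which uses the proton gradient to make ATP, the median log2 fold change was 0.15 and all 18 were above 0. At an unadjusted p under 0.05, 6 lay higher and 0 lower. Over all genes 7.05% lay higher and 12.2% lower, which applies to the next lists too. The ATP synthase gene with the smallest p was Atp5e at 0.27 ± 0.08 (SE, edgeR quasi-likelihood adjusted p = 0.174). Of 19 further structural genes of the chain, 14 were tested, with a median of 0.11, and 3 lay higher. Among them were Ndufc2, a complex I accessory subunit, at 0.28 ± 0.08 and Cox4i2, the hypoxia-linked isoform of Cox4i1, at -0.32 ± 0.33. The assembly factors had 44 of 47 genes tested, a median of 0.10 and 7 higher, with Sdhaf4 at 0.34 ± 0.10 and Ttc19 at -0.09 ± 0.06. In each of these lists, 0 genes passed after adjustment in edgeR or DESeq2.

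Outside the chain, mitochondrial lists had medians of like size. The 18 genes of the citric acid cycle had a median log2 fold change of 0.12, from Ogdh at -0.15 ± 0.08 to Sucla2 at 0.24 ± 0.07 (SE). At an unadjusted p under 0.05, 6 of them lay higher, where 7.05% of all genes lay higher and 12.2% lower. The mitochondrial ribosome had 76 of 77 genes tested, a median of 0.13 and 12 higher, with Mrpl14 at 0.48 ± 0.11 and Mrps15 at -0.17 ± 0.10. Import and carrier genes had 30 of 31 tested, a median of 0.14 and 7 higher, with Slc25a4, the ADP/ATP carrier, at 0.21 ± 0.07 and Slc25a22, a glutamate carrier, at -0.30 ± 0.13. None of these lists held a gene below 0 with an unadjusted p under 0.05, and 0 of their genes passed after adjustment in edgeR or DESeq2.

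Most tested subunits encoded in mitochondrial DNA lay on the other side of 0. Of 13 genes 10 were tested, with 9 below 0 and 1 above. Their median was -0.14 (log2 fold change), and 3 lay lower at an unadjusted p under 0.05, where 12.2% of all genes did. The median weighs the tested genes alike, though counted wild type levels ran from 2.27 CPM (mt-Atp6) to 13660 CPM (mt-Co1). The genes mt-Co3 and mt-Co2 were also low, at 7.97 and 10.4 CPM in wild type. Whether such low counts give the true level of these transcripts was not tested. The summed level of the 13 genes overlapped between groups, at 17655 to 19593 CPM in wild type and 18344 to 19067 CPM in duplication libraries. Most of this sum was mt-Co1. For 5 of the 10 tested genes every duplication library was below every wild type library, where 10.5% of all genes had this order. The complex I subunit mt-Nd6 was at 58.3, 62.4 and 68.9 CPM in wild type and 52.6, 47.1 and 43.9 CPM in duplication libraries, with no overlap. Its log2 fold change was -0.40 ± 0.09 (SE; edgeR quasi-likelihood adjusted p = 0.173). The complex I subunits mt-Nd2 and mt-Nd4 were at -0.21 ± 0.06 and -0.20 ± 0.06, while mt-Co1, the catalytic subunit of complex IV, was at 0.03 ± 0.06. In edgeR 0 of the 10 passed, and DESeq2 called 1. The difference between nuclear and mitochondrial members of the chain was not tested.

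**Figure D4:**
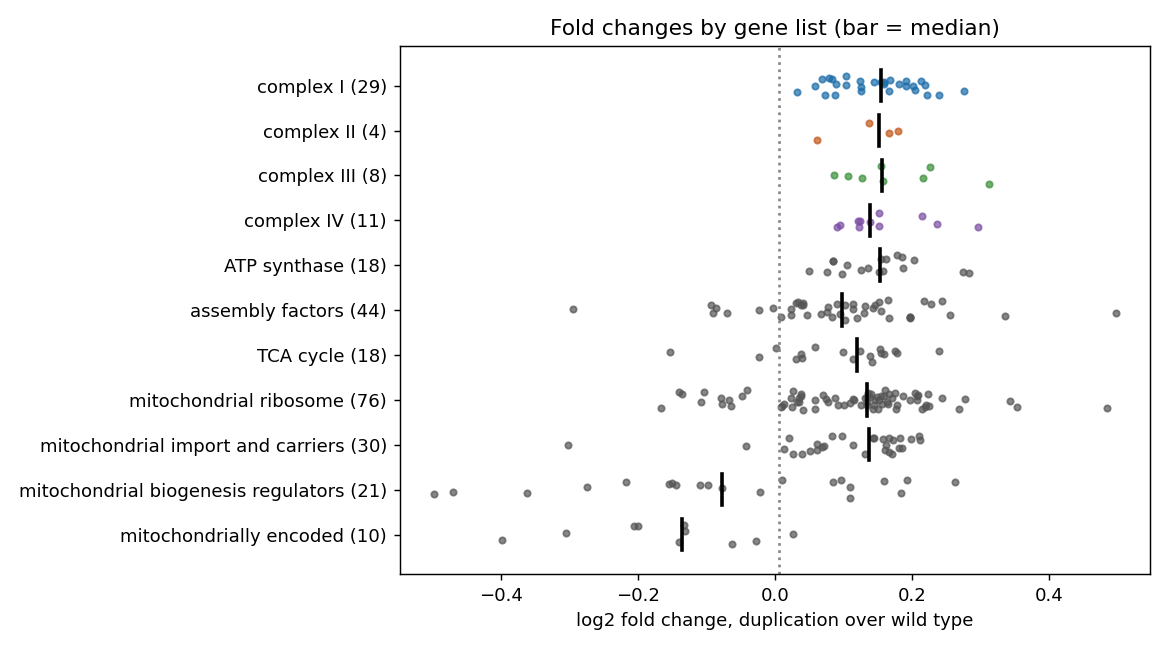
Log2 fold change (duplication over wild type, x axis) of every tested gene of each list (y axis, number of genes in brackets); points are genes, bars are medians, and the dotted line is the median of all tested genes. The complexes I to IV and the ATP synthase have medians from 0.14 to 0.16, while mitochondrially encoded genes have a median of -0.14.

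Fold changes varied with gene length. Among 12965 tested protein-coding genes, split into 4 classes of equal size by merged exon length, the median log2 fold change from the shortest to the longest class was 0.09, 0.04, -0.01 and -0.09. Of the members, 41 lay in the shortest class, with a median of 0.15, 8 in the next with 0.13, 2 in the third with 0.13, and Ndufs1 alone in the longest at 0.21. The median merged exon length was 1465.5 bases for members and 4657 bases for tested protein-coding genes. In each class the members' median was above that of all genes of the class, and in the shortest class 11.3% of all genes lay higher at an unadjusted p under 0.05. The part of length in the result was not tested.

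Transcripts annotated as TEC (to be experimentally tested) or sense intronic, which lie mostly within introns of other genes, lay at a median of -0.70 (log2 fold change) for the 292 tested of 1296. At an unadjusted p under 0.05, 156 of the 292 lay lower and 0 higher, where 12.2% of all genes lay lower and 7.05% higher. Their mean centred log2 CPM was 0.47, -0.00 (-0.000415) and 0.53 in wild type and -0.44, -0.43 and -0.12 in duplication libraries. The wild type libraries with the highest values, replicates 1 and 3, were those with the lowest member levels. With this level as a covariate in edgeR, 15 members were above 0 and 37 below, the median log2 fold change of the members was -0.07, and 0 passed. The level and the groups are so closely tied over 6 libraries that their parts in the member values cannot be told apart.

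Markers of other cell types also differed between libraries. The median was 0.73 (log2 fold change) for the 8 meningeal fibroblast markers. At an unadjusted p under 0.05, 5 of 8 lay higher, where 7.05% of all genes did, and DESeq2 called 2, where it called 0.292% higher. Their sum was 22.5 to 33.1 CPM in wild type and 31.4 to 64 CPM in duplication libraries. Ogn, an extracellular matrix protein, had the smallest p of them at a log2 fold change of 1.92 ± 0.35 (SE; edgeR quasi-likelihood adjusted p = 0.163). The highest library of this list was duplication replicate 1, which was also the highest of the 6 for 28 members. The 8 oligodendrocyte markers were all below 0, with a median of -0.34 and 0 at an unadjusted p under 0.05, and summed to 1372 to 2360.3 CPM in wild type and 1231 to 1659.8 CPM in duplication libraries. The 7 astrocyte markers were all above 0, where 51% of all tested genes were, with a median of 0.13. They summed to 3706 to 3842 CPM in wild type and 3763 to 4041 CPM in duplication libraries. Slc1a2 alone averaged 2415 CPM in wild type, at a log2 fold change of 0.000569. The 7 microglia markers had a median of 0.08 and summed to 329 to 370.2 CPM and 372 to 386 CPM. The 8 endothelial and pericyte markers had a median of 0.12. They summed to 251 to 274 CPM in wild type and 264 to 311 CPM in duplication libraries. Choroid plexus and blood markers summed to 55 to 99.6 CPM and 68.1 to 122 CPM, and striatum markers to 79 to 106 CPM and 84 to 90.05 CPM. Medians were 0.35 for choroid plexus and blood, -0.19 for striatum and -0.07 for neuron markers. The genes with the smallest p in each direction were Snap25 (0.17) and Rbfox3 (-0.23) among neuron markers, Mag (-0.40) among oligodendrocyte markers and Aldh1l1 (0.19) among astrocyte markers. For the other lists they were P2ry12 (0.20) and C1qb (-0.04), Vtn (0.28) and Ly6c1 (-0.13), Hba-a1 (0.35) and Kl (-0.06), and Ppp1r1b (0.03) and Drd1 (-0.24), all as log2 fold changes. No marker of these lists was at 0 in all libraries, and the part of cell makeup in the member values was not tested.

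The genes outside all lists whose pattern was most like that of the members, by Pearson correlation with their mean over the 6 libraries among 9238 genes at 10 CPM or more, were Nars (0.999), Nap1l4 (0.998), Rps20 (0.998), 1110008F13Rik (0.998) and Rsl1d1 (0.997). Nars, the cytosolic asparaginyl-tRNA synthetase, was at a log2 fold change of 0.11 ± 0.06 (SE). Rps20, a protein of the cytosolic ribosome, was at 0.11 ± 0.07, Nap1l4, a histone chaperone, at 0.12 ± 0.07, 1110008F13Rik at 0.15 ± 0.08 and Rsl1d1 at 0.17 ± 0.08. These genes lay in the range of the members, and with 9238 candidates and 6 points sharing libraries the values describe these libraries alone.

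The members lie on 18 chromosomes, with 3 (Ndufa3, Cox6b1 and Uqcrc2) on chromosome 7, which carries the duplicated segment. Of the 52, 30 overlap no other annotated gene, 16 overlap a gene on the opposite strand only, and 6 (Ndufa10, Ndufb2, Ndufb8, Ndufb9, Cox4i1 and Cox7c) overlap one on the same strand. Whether strand was used in counting is not known here, so values of these overlapping members, Ndufb6, Uqcrh and Sdha among them, are less certain.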

How the data were processed

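Reads were processed by the authors with cutadapt, TopHat2 and HTSeq on mm10, per the submitters' processing notes; for versions, annotation and strand setting, nothing is given in these sources. RNA was extracted with Trizol and made into stranded total RNA libraries (TruSeq) after Ribo-Zero, per the labels' protocols. The authors deposited raw counts per gene, which are not normalized, in a joint table and in 6 tables of single libraries with equal values.

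Names and counts of the joint table did not line up: it had 45807 lines of counts, 45801 names and 25 names turned into date numbers. Names were shifted by an offset that grew in 6 steps, which touched 65.1% of names and 31 of the 52 members. Names within 25 lines of a step were left out, except Ndufa7, kept because neighbouring genes fitted the offset. Of the names, 91.9% were found in GENCODE vM21, which gave positions and lengths. Unnamed lines, 0.905% to 0.95% of counts, were left out.

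Genes were tested in R 4.3.3 with edgeR 4.0.16 (TMM, filterByExpr by group, quasi-likelihood test of 3 against 3 libraries, Benjamini-Hochberg adjustment over all genes, threshold 0.05), after being tested on simulated data. The common dispersion had a square root of 0.0951. CPM used TMM-scaled library sizes, and log2 CPM a prior count of 2. Alternatives were DESeq2 1.42.0, limma 3.58.1 (voom), other scalings and filters, and a replicate block. Others left out single libraries, used names as deposited or took the TEC and sense intronic level as covariate. Totals of 12988457 to 21872271 counts are PCR reads without molecular identifiers, so counting precision covers counting error only.

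Members and lists were chosen with earlier results of these data known. By rule, values in every library are given for the member of each complex with the smallest p, the highest and the lowest fold change and the highest level per kilobase. Also named by rule, without library values, are the gene of each other list with the smallest p in each direction and the 5 genes most like the members. Library values of Ndufs1, Ndufv1, Uqcrc2, Ppargc1a and mt-Nd6, and the genes mt-Nd2, mt-Nd4, Tfam and the factors of the searched motifs were added after their values were seen. Ndufb1, Coa1 and Surf1 were not analysed here. RefSeq promoters of Cox4i1, Cox6c, Ndufa2, Ndufb9, Ndufs1, Sdhc, Uqcrb, Uqcrc2 and Uqcrq were not used here.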

Additional observations from a re-analysis of the deposited data

How the results depend on the processing

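All 52 members stayed above 0 in every alternative except those named next. Without wild type replicate 1, 49 of 52 did, and with names as deposited 34 of 39 did, on other genes' counts. With the TEC and sense intronic level as covariate, 15 of 52 did. The complex medians ran from 0.101 to 0.235 (complex I), 0.109 to 0.227 (II), 0.121 to 0.242 (III) and 0.0931 to 0.211 (IV) when single libraries were left out; the lowest values came without wild type replicate 1 and the highest without wild type replicate 2. Single libraries left out gave 0 to 731 higher and 0 to 1676 lower genes over all genes, and 0 to 17 higher members in complex I, 0 to 2 in II, 0 to 5 in III and 0 to 6 in IV, the highest all without wild type replicate 2.

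DESeq2 called 45 genes higher and 220 lower. With no filter on low counts, edgeR called 173 higher and 843 lower, with 1 member each in complexes III and IV. Without both libraries numbered 2, it called 230 higher and 1092 lower, with 5 members in complex I, 3 in III and 3 in IV, and a complex II median of 0.251. With names as deposited the complex II median was 0.0616 and Ndufa4 was at -0.0116. With the TEC and sense intronic covariate the medians were -0.0789 (I), -0.0821 (II), -0.0357 (III) and -0.0659 (IV). In that fit Ndufb6 was at -0.0891, Ndufb9 at -0.149, Sdhb at -0.0972, Uqcrh at -0.132, Ndufa4 at -0.0659 and Cox5b at -0.11. With single libraries left out, Ndufa8 ran from -0.00629 (without wild type replicate 1) to 0.06. The cause of these shifts was not tested. Leaving Ndufa7 out of complex I, an alternative chosen after seeing the data, changed no call.

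No label says that replicate numbers pair the libraries, though same-numbered libraries were alike in Xist and Y-linked counts. Deviations from the group means correlated at 0.102, 0.0629 and 0.311 across genes for the same numbers, and wild type replicate 2 correlated best with duplication replicate 1 (0.157). The replicate block gave 6 higher and 1 lower gene over all genes and 0 members. At an unadjusted p under 0.05 it gave 14 members higher, where 973 of 15399 tested genes lay higher and 1830 lower. Levels per kilobase moved by more than 1 SD in 9 of 13 genes with the longest transcript as length. With 3 libraries per group, 1 library alone moved the count of calls, which limits what can be said of fold changes of this size.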
